A study of Sus scrofa with 6 samples.

Results

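The genes described here are 31 genes of S phase and DNA replication, chosen as a list of replication licensing, fork and nucleotide genes and found by gene symbol among the 35670 Ensembl identifiers of the count table. An identifier was matched for 30 of them, and all 30 had enough reads to be tested. No identifier carried the symbol RRM2, which was not analysed here. The libraries are stranded mRNA-seq libraries from cultured granulosa cells of the pig (Sus scrofa). These cells line the follicle, nourish the egg and make estradiol, and they were drawn from follicles of 3 to 6 mm. The control group (n = 3) was kept at 37 °C for 6 h and the heat group (n = 3) at 42 °C for 6 h, and both were grown in serum-containing medium to the same confluency before the treatment and were taken off the plate with trypsin. The labels call the libraries biological replicates, but give no breed, animal or passage and leave unsaid if the cultures were separate, so the p-values below measure only the spread between these libraries, which may be technical.

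A cell copies its genome once per division in steps that these genes serve. In G1 phase the loaders CDC6 and CDT1 place the ring-shaped MCM2-7 helicase on origins. Cyclin E with its kinase, and E2F transcription factors released from the retinoblastoma protein, then open S phase. CDC45 and the GINS complex join MCM2-7 to form the active helicase, MCM10 helps it fire, and polymerase alpha starts each strand. The RFC complex loads the sliding clamp PCNA, on which polymerases delta and epsilon extend the strands. Ribonucleotide reductase and thymidylate synthase supply nucleotides, and CAF-1, UHRF1 and SLBP serve the packaging and marking of the new DNA. Granulosa cells divide as the follicle grows.

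The libraries held between 18711440 and 29606378 counts, of which the 30 genes took between 0.0441% (control 1) and 0.0605% (control 2) in the controls and between 0.0386% (heat 1) and 0.0536% (heat 3) in heat. Control 2 and control 3 were closely alike (Pearson r = 0.990 over 14242 genes), as were heat 1 and heat 2 (0.991), while control 1 and heat 3 stood apart from their groups and were closest to each other (0.920). These correlations run across genes, which are not replicates, and describe likeness alone. Heat induction was present in every heat library: the inducible HSP70 gene HSP70.2 stood at 130, 115 and 141 CPM in the controls and at 5896, 5773 and 4823 CPM in heat. CPM is the usual depth-scaled count, here with TMM factors (trimmed mean of M-values), and since it is not per length it compares libraries within a gene and not one gene with another. The defining granulosa genes FSHR, AMH and INHA were near 0, with at most 49, 6 and 7 reads in a library, although CYP11A1 and GATA4 were read in all. Of 15 granulosa markers 13 were matched and 9 tested, and their summed level was 337 to 657 CPM in controls and 511 to 626 CPM in heat. Stromal markers, 8 of 9 matched, summed to 59118 CPM in control 1 against 7422 and 6699 CPM in the other controls, and to 87926, 79385 and 28084 CPM in heat. Of 5 theca markers all were matched, but INSL3 was at 0 reads and CYP17A1, LHCGR and GLI1 had at most 4, 6 and 7 reads in a library. Their sum, nearly all from PTCH1, was 1.57 to 10.3 CPM in controls and 6.05 to 29.7 CPM in heat. Surface epithelium markers, 5 of 7 matched and EPCAM at 0, summed to 3.93 to 22.4 and to 20.6 to 109 CPM. Leukocyte markers, all 7 matched and CD3E at 0, summed to 3.20 to 61.4 and to 1.34 to 4.69 CPM, and PTPRC had 35 and 64 reads in control 2 and 3 and 0 in the other libraries. Endothelial markers (4 of 5 matched, CDH5 at 0) summed to 5.26 to 10.8 CPM over all libraries and smooth muscle markers summed to 9984 to 10253 CPM in controls and 6727 to 14696 CPM in heat. Of 6 oocyte markers, all matched, ZP2, ZP3 and ZP4 were at 0 and BMP15 had at most 4 reads, while GDF9 rose from 5.90 ± 0.676 to 15.7 ± 5.48 CPM (SD, n = 3, edgeR adjusted p = 0.0477) and DDX4 had 13 to 21 reads. Their summed level was 6.25 to 7.68 CPM in controls and 9.93 to 20.2 CPM in heat. Besides GDF9, the leukocyte marker LYZ was called lower (edgeR adjusted p = 0.0447). LYZ had 602 and 1092 reads in control 2 and 3 but 7 in control 1, and its groups overlapped. The surface epithelium markers KRT8 and UPK3B were called higher (edgeR adjusted p = 0.0477 and 0.0309). No other tested marker was called. The part of these differences in the results below was not tested.

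None of the 30 replication genes passed the test of heat against control, the quasi-likelihood F test of edgeR with Benjamini-Hochberg adjustment over all 14242 tested genes at an adjusted p of 0.05. In the same fit 956 genes (6.71%) were called higher and 615 (4.32%) lower in heat, so calls were uncommon over the whole table as well. At an unadjusted p under 0.05 there were 6 of the 30, POLD1 and E2F1 higher and PCNA, RFC3, RFC4 and GINS1 lower, against 33.9% of all tested genes. DESeq2 called these 6 genes, 2 higher and 4 lower, against 14.9% and 12.6% of the 14242 genes. Limma-voom called PCNA alone, as lower, against 6.65% of genes higher and 4.39% lower. In bulk RNA, fewer cells in S phase and less of these RNAs per cell cannot be told apart. In 4 genes (MCM2, CDC6, POLD1 and E2F1) every heat library lay above every control, against 20.9% of all tested genes, and in 6 (CDC45, GINS1, PCNA, RFC3, RFC4 and CCNE2) every heat library lay below, against 16.8%. The median log2 fold change, heat minus control, was -0.19 over the 30 genes and 0.05 over all tested genes. With library totals as the only scaling, 1583 genes were called higher and 416 lower, the median of all genes was 0.17, and 6 of the 30 lay above and 2 below, against 26.6% and 10.6% of all tested genes under that scaling.

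**Figure D1:**
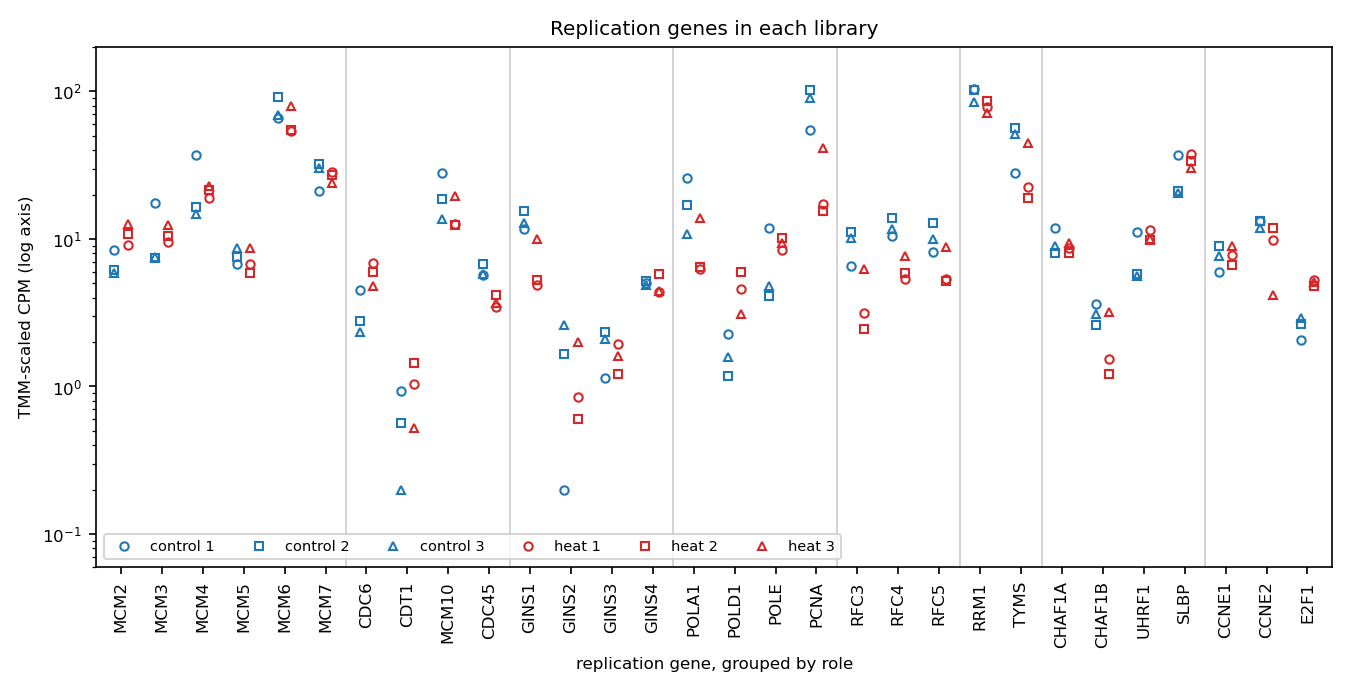
TMM-scaled CPM (log axis) of the 30 tested replication genes in each of the 6 libraries, grouped by role, with controls in blue and heat in red and 1 symbol per replicate number. For PCNA the heat libraries (15.6 to 41.3 CPM) lie below the controls (54.7 to 102 CPM), and for POLD1 they lie above (3.09 to 6.00 against 1.18 to 2.27 CPM).

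The helicase loaders CDC6 and CDT1 were measured as RNA, and loading itself was not measured. CDC6 stood at 4.54, 2.79 and 2.33 CPM in the 3 controls and at 6.88, 6.00 and 4.80 CPM in heat 1, 2 and 3. All heat libraries were above all controls, with heat 3 only just above control 1. Its log2 fold change was 0.87 ± 0.39 (SE), a 95% interval of 0.987 to 3.40-fold, and edgeR's adjusted p was 0.154. CDT1 rested on few reads, 14, 13 and 4 in the controls and 21, 31 and 17 in heat, and its groups overlapped (log2 fold change 0.83 ± 0.67). MCM10, which helps to activate the loaded helicase, was highest in control 1 (27.8 CPM) and overlapped between the groups, with 18.6 and 13.6 CPM in the other controls and 12.6, 12.4 and 19.5 CPM in heat (log2 fold change -0.43 ± 0.37).

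The 6 subunits of the MCM2-7 ring, which act in equal numbers in the protein complex, did not share a direction, and the signs of MCM3, MCM4, MCM5 and MCM7 changed with the scaling or the libraries used. MCM2 stood at 8.41, 6.20 and 5.85 CPM in controls and at 9.13, 10.8 and 12.7 CPM in heat. The groups did not overlap, and the log2 fold change was 0.67 ± 0.31 (edgeR adjusted p = 0.167). MCM6, the subunit with the most reads, stood at 66.3, 91.1 and 69.0 CPM in controls and at 53.7, 54.8 and 80.0 CPM in heat, a log2 fold change of -0.26 ± 0.31. For MCM6, heat 3 lay among the controls and the other heat libraries lay below them. MCM3 and MCM4 were highest in control 1, at 17.4 and 37.3 CPM, and were higher in each heat library than in control 2 and 3. MCM3 was at 7.38 and 7.59 CPM in those controls and at 9.52, 10.5 and 12.3 CPM in heat, and MCM4 was at 16.4 and 14.8 CPM and at 19.0, 21.4 and 23.0 CPM. Their log2 fold changes over all libraries were 0.00 ± 0.40 and -0.11 ± 0.40, and without control 1 that of MCM4 was 0.42. MCM5 and MCM7 overlapped between the groups (log2 fold changes -0.10 ± 0.31 and -0.07 ± 0.29). The 95% intervals were widest for MCM3 (0.523 to 1.92-fold) and MCM4 (0.484 to 1.77-fold), and their upper limits were 1.53, 1.36 and 1.51-fold for MCM5, MCM6 and MCM7.

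CDC45 and the 4 GINS subunits, the partners of the ring at the fork, had log2 fold changes below 0 in the fit of all 6 libraries, though the signs of GINS2 and GINS4 changed under other settings. CDC45 stood at 5.74, 6.77 and 5.80 CPM in controls and at 3.44, 4.14 and 3.70 CPM in heat, with no overlap and a narrow spread in both groups (6.10 ± 0.576 and 3.76 ± 0.353 CPM, SD, n = 3). The log2 fold change was -0.70 ± 0.31 (edgeR adjusted p = 0.157). GINS1 stood at 11.8, 15.5 and 12.7 CPM in controls and at 4.89, 5.30 and 10.0 CPM in heat. All heat libraries were below all controls, but heat 3 was at 1.95 times the level of heat 1 and heat 2. Its log2 fold change was -0.98 ± 0.37 (edgeR adjusted p = 0.110). GINS2 was read 3 times in control 1 against 38 and 53 times in control 2 and 3, and 17, 13 and 66 times in heat. GINS3 had 17 to 54 reads in every library, and GINS4 was at 4.91 to 5.20 CPM in controls and at 4.39 to 5.81 CPM in heat. The log2 fold changes were -0.37 ± 0.83 for GINS2, -0.23 ± 0.45 for GINS3 and -0.05 ± 0.32 for GINS4. GINS2 was at 0.26 without control 3, and GINS4 was at 0.07 with library totals as the only scaling.

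Among the polymerases the catalytic subunits of alpha and delta lay on opposite sides. POLD1, the catalytic subunit of polymerase delta, stood at 2.27, 1.18 and 1.59 CPM in controls and at 4.59, 6.00 and 3.09 CPM in heat. The groups did not overlap, and the log2 fold change of 1.44 ± 0.44 was the highest of the 30 (95% interval 1.35 to 5.49-fold, edgeR adjusted p = 0.0667). It rested on 27 to 34 reads in a control library and 92 to 129 in a heat library. POLA1, the catalytic subunit of polymerase alpha, stood at 25.8, 16.9 and 10.8 CPM in controls and at 6.23, 6.46 and 13.9 CPM in heat, so heat 3 lay among the controls. Its log2 fold change was -1.00 ± 0.46 (edgeR adjusted p = 0.166). POLE, the catalytic subunit of polymerase epsilon, was at 12.0 CPM in control 1, 4.10 and 4.81 CPM in control 2 and 3, and 8.43, 10.2 and 9.35 CPM in heat. Each heat library thus lay above control 2 and 3 and below control 1, and the log2 fold change was 0.43 ± 0.45 (edgeR adjusted p = 0.518).

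PCNA, the sliding clamp on chromosome 17 (14137746 to 14142584, Sscrofa11.1), had the lowest fold change of the 30. Its 6 libraries held 819, 2340 and 1815 reads in control 1, 2 and 3 and 348, 335 and 1350 reads in heat 1, 2 and 3, or 54.7, 102 and 90.0 CPM against 17.4, 15.6 and 41.3 CPM. Every heat library lay below every control, but heat 3 was at 2.50 times the other heat libraries and control 1 was the lowest control. The log2 fold change was -1.73 ± 0.47, a 95% interval of 0.141 to 0.640-fold, and edgeR's adjusted p of 0.0537 missed the threshold. It passed with RLE scaling (adjusted p = 0.0462), without a filter on low counts (0.0256), with a minimum of 10 CPM in 3 libraries (0.0469), and with limma-voom (0.0458) and DESeq2 (0.00244), and also without control 1 or heat 3. It did not pass without control 2, control 3, heat 1 or heat 2 (adjusted p 0.172 to 0.190), with library totals as the only scaling (0.0718) or with the closely alike libraries summed (0.452).

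The RFC clamp loader is represented by RFC3, RFC4 and RFC5, whose fold changes had the same sign as that of the clamp. RFC3 stood at 6.54, 11.1 and 10.1 CPM in controls and at 3.14, 2.46 and 6.23 CPM in heat. RFC4 was at 10.5, 13.8 and 11.8 CPM and at 5.34, 5.90 and 7.61 CPM. In both genes the groups did not overlap, and as with PCNA the highest heat library was heat 3. The log2 fold changes were -1.23 ± 0.44 for RFC3 and -0.94 ± 0.30 for RFC4, with edgeR adjusted p-values of 0.10 and 0.0765. RFC5 was at 8.21, 12.9 and 9.92 CPM in controls and at 5.34, 5.16 and 8.77 CPM in heat, where heat 3 lay above control 1 (log2 fold change -0.68 ± 0.35). The sign of RFC3, RFC4, RFC5 and PCNA was negative in every alternative fit that tested them (15 for PCNA and 14 for each RFC gene). Of the subunits outside the list of 31, RFC1 was at 90.3 to 100 CPM in controls and at 39.0, 37.5 and 81.7 CPM in heat. It was not called (log2 fold change -0.85 ± 0.38, edgeR adjusted p = 0.156). RFC2 overlapped between the groups and was not called either (log2 fold change -0.16 ± 0.47).

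**Figure D2:**
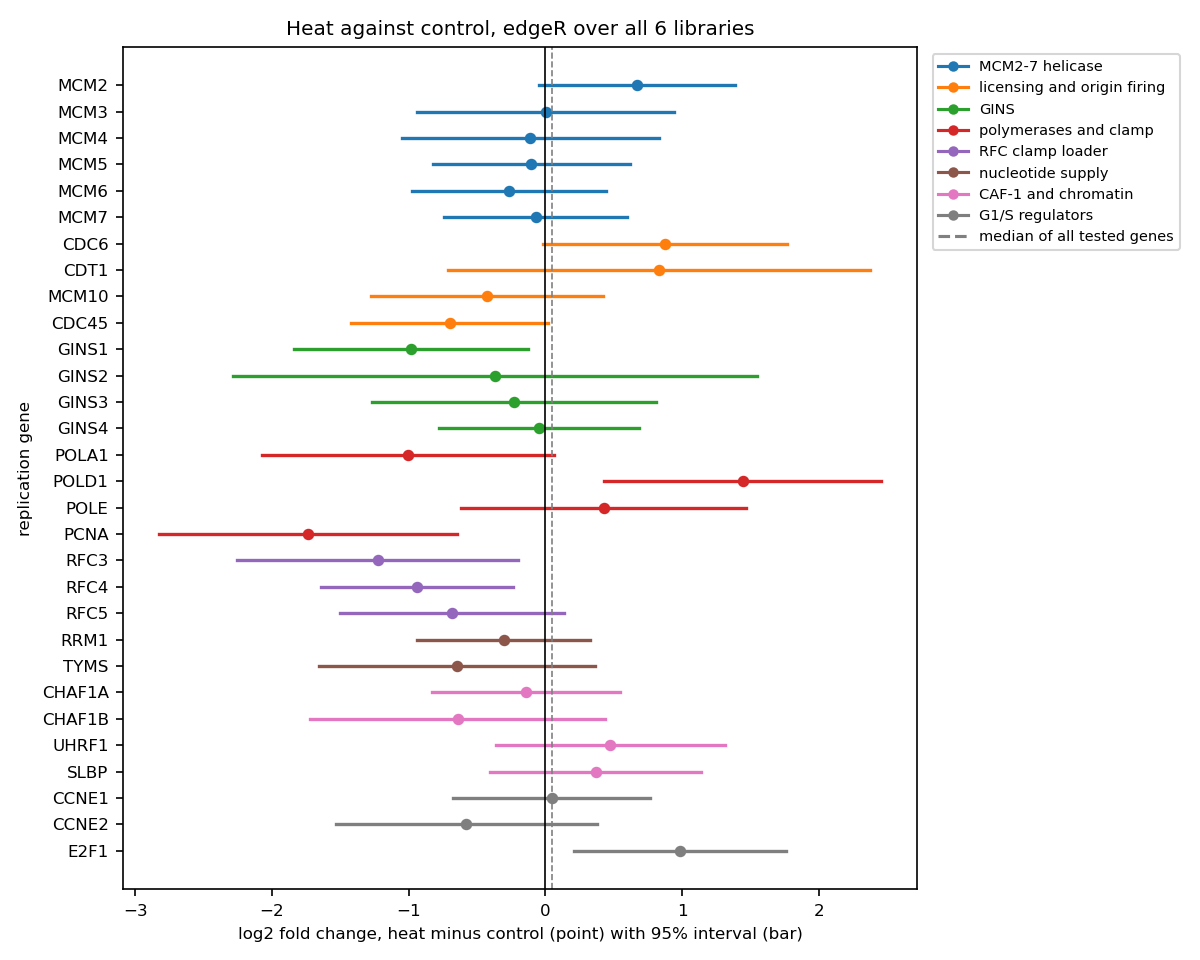
Log2 fold change, heat minus control, of the 30 replication genes (points) with the 95% interval of the edgeR fit (bars), coloured by role, and the median of all 14242 tested genes as a dashed line. The intervals of POLD1 and E2F1 lie above 0 and those of GINS1, PCNA, RFC3 and RFC4 below 0, before adjustment for the number of genes tested.

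For nucleotide supply RRM1 and TYMS were measured. RRM1, the large subunit of ribonucleotide reductase, stood at 96.9 ± 10.8 CPM in controls and 78.5 ± 6.78 CPM in heat (SD, n = 3). Its 95% interval was 0.522 to 1.26-fold (edgeR adjusted p = 0.452). TYMS, thymidylate synthase, was at 27.8, 56.3 and 51.1 CPM in controls and at 22.6, 19.1 and 44.6 CPM in heat. The library order of TYMS was that of PCNA apart from control 1, which lay below heat 3, and its log2 fold change was -0.65 ± 0.43 (edgeR adjusted p = 0.317).

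The chromatin genes overlapped between the groups. CHAF1A, the large subunit of CAF-1, was at 7.99 to 11.9 CPM in controls and had all heat libraries within that range, up to 9.32 CPM in heat 3. CHAF1B, the middle subunit of the same histone chaperone, was at 3.61, 2.62 and 3.12 CPM in controls and at 1.55, 1.21 and 3.18 CPM in heat, so heat 1 and heat 2 were below and heat 3 among the controls. UHRF1, which recruits the maintenance DNA methyltransferase, was at 5.81 and 5.60 CPM in control 2 and 3 and at 9.86 to 11.5 CPM in heat, but control 1 stood at 11.2 CPM. SLBP, which binds the stem-loop of replication-dependent histone mRNAs, had the same pattern, with 37.3 CPM in control 1, 21.0 and 20.5 CPM in control 2 and 3, and 37.9, 33.7 and 30.1 CPM in heat. The log2 fold changes were -0.14 ± 0.30 for CHAF1A, -0.64 ± 0.47 for CHAF1B, 0.48 ± 0.36 for UHRF1 and 0.37 ± 0.33 for SLBP.

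E2F1, a transcription factor that activates many of the genes above, stood at 2.07, 2.66 and 2.93 CPM in controls and at 5.29, 4.79 and 5.13 CPM in heat. The groups did not overlap and were tight, with heat 3 at 1.02 times the level of the other heat libraries. The log2 fold change was 0.99 ± 0.34, a 95% interval of 1.15 to 3.39-fold (edgeR adjusted p = 0.0869). CCNE1, one of the cyclins E, overlapped between the groups (7.51 ± 1.49 and 7.77 ± 1.10 CPM, SD, n = 3). CCNE2, its paralog, was at 13.3, 13.3 and 11.9 CPM in controls and at 9.77, 11.9 and 4.16 CPM in heat. Heat 3 was the lowest, at 0.39 times heat 1 and heat 2, whereas heat 2 and control 3 were nearly level (log2 fold change -0.58 ± 0.41, edgeR adjusted p = 0.344).

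Ratios of reads between pairs of these genes within a library do not depend on the scaling. For 4 pairs, chosen after their values were seen and not tested, they were as follows. CDC6 reads per PCNA read were 0.0830, 0.0274 and 0.0259 in the controls, and they were 0.397, 0.385 and 0.116 in the heat libraries. POLD1 reads per POLA1 read were 0.0881, 0.0696 and 0.147 in controls and 0.736, 0.928 and 0.222 in heat. In the MCM ring, MCM2 reads per MCM6 read were 0.127, 0.0680 and 0.0848 in controls and 0.170, 0.197 and 0.158 in heat. None of these 3 ratios overlapped between the groups, with heat 3 the closest of the heat libraries to the controls in each. For CDC6 and PCNA this followed from their levels, which did not overlap and differed in opposite directions. The share of other gene pairs without overlap was not computed. RRM1 reads per TYMS read did overlap, at 3.73, 1.82 and 1.65 in controls and 3.46, 4.48 and 1.61 in heat.

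The replication genes also differed between libraries of 1 group. Heat 3 lay within the range of the controls for 17 of the 30 genes, and the share over all tested genes was not computed. The median absolute log2 difference of the 30 genes was 0.21 between control 2 and control 3 and 0.20 between heat 1 and heat 2. It was 0.42 between heat 3 and the mean of heat 1 and 2, and 0.63 between control 1 and the mean of control 2 and 3, against 0.74 and 0.70 over all tested genes. Heat 3 lay at 2.50, 2.20, 2.17, 2.15, 2.24 and 2.61 times the other heat libraries in PCNA, RFC3, POLA1, TYMS, CHAF1B and GINS2, and at 0.39 and 0.46 times in CCNE2 and CDT1. Control 1 lay between control 2 and 3 on one side and heat 1 and 2 on the other in 13 genes (43.3%, against 49.8% of all tested genes). So did heat 3 in 13 (43.3%, against 52.0%), and both at once in 9 (30%, against 34.6%).

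**Figure D3:**
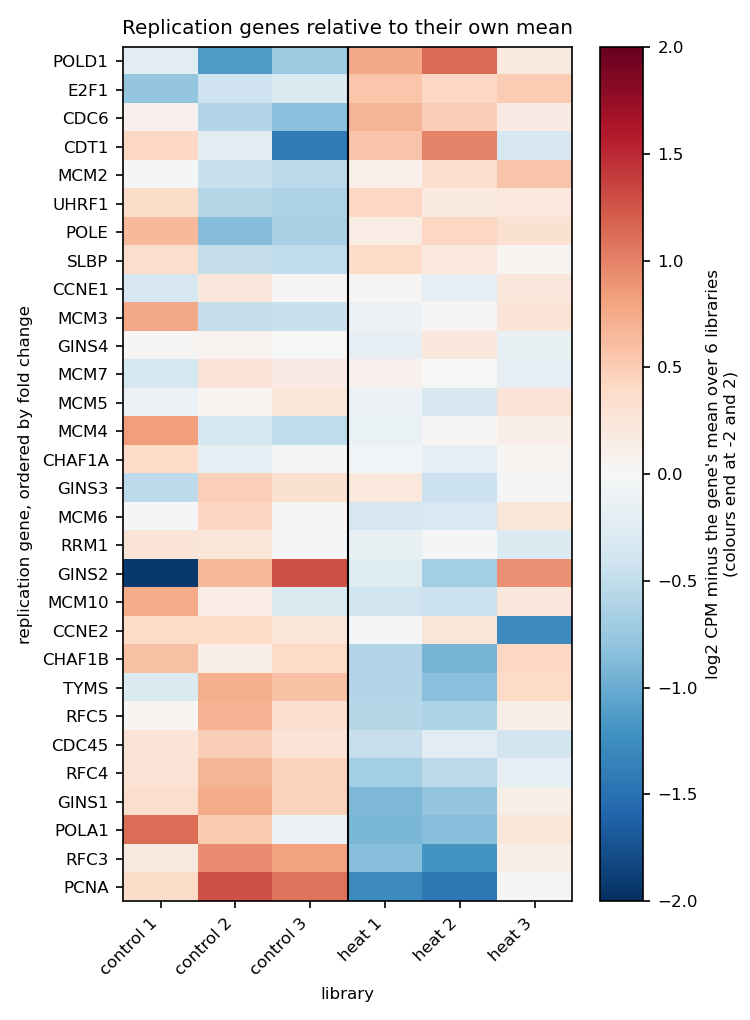
Log2 CPM of each of the 30 replication genes minus its mean over the 6 libraries (colour scale from -2 to 2), ordered by fold change, with controls left and heat right of the line. Heat 1 and heat 2 are low in the lowest rows (RFC3 and PCNA), where heat 3 lies nearer the controls, and control 1 is above control 2 and 3 in MCM3, MCM4, POLE, UHRF1 and SLBP.

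Without control 1 the test called 4 of the 30 higher (CDC6, POLD1, POLE and UHRF1) and 3 lower (PCNA, RFC3 and RFC4), against 19.6% and 12.3% of all genes tested. Without heat 3 it called 2 higher (POLD1 and E2F1) and 7 lower (GINS1, POLA1, PCNA, RFC3, RFC4, RFC5 and CHAF1B), against 18.4% and 17.7%. With both left out, which sets 1 pair of closely alike libraries against another, it called 10 higher and 13 lower, against 41.2% and 38.4%, and there the p-values rest on the small differences within the pairs. When any one of the alike libraries was left out (control 2, control 3, heat 1 or heat 2), none of the 30 was called, nor were more than 7 genes of the whole table.

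Other replication genes were read from a further list of 56, of which 52 were tested. In heat 7 were lower by the test and none higher, against 4.32% and 6.71% of all tested genes. The other 45 were not called. The called genes with the largest falls were HELLS, a chromatin remodeller that works with DNA methylation (13.0 ± 3.33 to 1.70 ± 0.720 CPM, SD, n = 3), ORC3 of the origin recognition complex (27.5 ± 8.04 to 5.01 ± 2.15 CPM), the primase subunit PRIM1 (10.1 ± 2.83 to 2.80 ± 1.23 CPM) and ATAD5, which unloads PCNA (17.95 ± 5.28 to 5.33 ± 0.873 CPM). Their log2 fold changes were -2.92 ± 0.45, -2.45 ± 0.42, -1.84 ± 0.43 and -1.75 ± 0.34, with edgeR adjusted p-values of 0.0276, 0.0276, 0.0414 and 0.0322. The other 3 were WDHD1, which tethers polymerase alpha to the helicase, the checkpoint adaptor CLSPN and the helicase-related MCM8, and they are named after their values were seen. So is TIPIN, a fork protection factor with no overlap and a log2 fold change of -2.27 ± 0.60, which missed the threshold (edgeR adjusted p = 0.0501). WDHD1 was at 27.4, 29.1 and 23.6 CPM in controls and at 8.78, 7.90 and 9.29 CPM in heat. MCM8 was at 17.2, 16.5 and 17.8 CPM in controls and at 6.43, 5.95 and 6.91 CPM in heat, so in these genes, unlike PCNA, heat 3 lay with the other heat libraries. The median log2 fold change of this list was -0.59. Of its 52 genes 18 lay below the controls in every heat library and 1 above, against 16.8% and 20.9% of all tested genes. Without control 1 it had 14 genes called lower, against 12.3% of all tested genes. Without heat 3 it had 21 lower and 2 higher, against 17.7% and 18.4%. Leaving out any library of the alike pairs (control 2, control 3, heat 1 or heat 2) left none.

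Among 29 tested genes of E2F and G1/S control, CCND3, a cyclin D, rose from 24.4 ± 6.57 to 57.4 ± 8.98 CPM (SD, n = 3). RBL1, the pocket protein p107, fell from 17.4 ± 4.79 to 5.36 ± 2.60 CPM, and FBXO5, an inhibitor of the anaphase-promoting complex, fell from 12.1 ± 2.80 to 4.11 ± 0.331 CPM. The other 26 did not pass, and the median log2 fold change was 0.03. These calls, 1 higher and 2 lower, stood against 6.71% and 4.32% of all tested genes. In 3 genes of this list every heat library lay above the controls and in 8 below, against 20.9% and 16.8%. Of 20 tested genes of replication stress and fork repair, the checkpoint clamp subunit RAD9A rose from 2.25 ± 0.481 to 6.08 ± 0.863 CPM. In that list the recombination genes BRCA2 (54.4 ± 12.2 to 19.5 ± 2.47 CPM), BRCA1 (36.4 ± 4.79 to 13.4 ± 3.15 CPM), the exonuclease EXO1 (7.12 ± 0.918 to 2.81 ± 0.684 CPM) and the checkpoint kinase ATR (55.7 ± 1.80 to 26.3 ± 0.585 CPM) fell, and 15 did not pass. The edgeR adjusted p-values of these 8 genes lay between 0.0339 and 0.0489. The fork repair list had 1 gene called higher and 4 lower, beside the same shares of all tested genes, and its median log2 fold change was -0.54. Of its 20 genes 10 lay below the controls in every heat library and 1 above, against 16.8% and 20.9%. Without control 1 the E2F list had 4 genes called higher and 4 lower and the fork repair list 2 and 7, against 19.6% and 12.3% of all tested genes. Without heat 3 they had 2 and 6, and 2 and 8, against 18.4% and 17.7%. Both lists had none with any library of the alike pairs left out.

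Genes of G2 and mitosis, the phases that follow S phase, had a median log2 fold change of -1.02 beside -0.19 for the 30 replication genes. The test called 9 of 30 lower and none higher, against 4.32% and 6.71% of all tested genes. In every heat library 19 lay below the controls and 1 above, against 16.8% and 20.9%. The spindle protein HMMR was at 60.5, 62.1 and 46.7 CPM in controls and at 8.98, 12.2 and 15.7 CPM in heat (log2 fold change -2.20 ± 0.33, edgeR adjusted p = 0.0276). The other 3 with the largest falls were the spindle checkpoint protein BUB1B (39.2 ± 12.4 to 8.41 ± 4.10 CPM, SD, n = 3) and the motors CENPE (243 ± 97.9 to 55.3 ± 11.98 CPM) and KIF11 (77.2 ± 14.9 to 17.96 ± 4.33 CPM), with edgeR adjusted p-values of 0.0339, 0.0309 and 0.0276. Heat 3 lay between the pairs of alike libraries for 25 of these 30 genes, beside 13 of the 30 replication genes and 52.0% of all tested genes. The difference between the lists was not tested. Without control 1 there were 12 lower and 4 higher, against 12.3% and 19.6% of all tested genes. Without heat 3 there were 19 lower and 2 higher, against 17.7% and 18.4%. With any library of the alike pairs left out there were none.

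**Figure D4:**
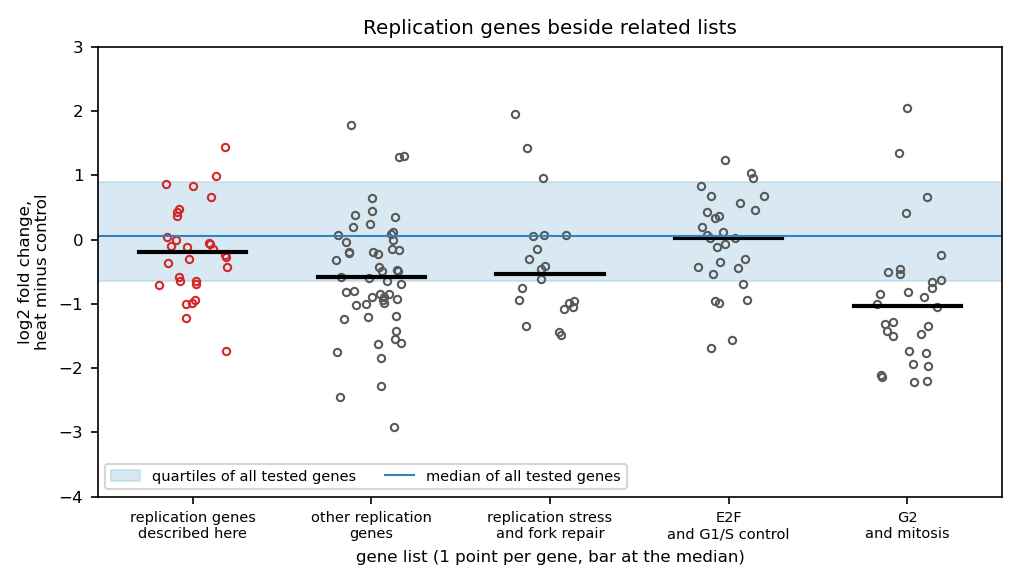
Log2 fold change, heat minus control, of each gene (point) in the replication genes described here and 4 related lists, with the list's median as a bar and the median and quartiles of all tested genes as a line and a band. The medians are -0.19, -0.59, -0.54, 0.03 and -1.02 from left to right.

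Of the 30 genes, 9 share part of their span with another RefSeq gene on Sscrofa11.1, the assembly that the submitters' processing notes name. MCM5 is not placed on a known chromosome there and was not checked. RFC4 (chromosome 13, 124589292 to 124604421) shares 5 bases with EIF4A2, RFC5 (chromosome 14, 34630374 to 34642598) shares 607 bases with WSB2, and CCNE2 (chromosome 4, 41802090 to 41821870) shares 1153 bases with INTS8. The sources used here do not say whether counting used strand, so reads from such shared stretches could belong to either gene. The longest shared stretches were 60026 bases of RFC3 with the lncRNA LOC102159559, 10752 of MCM4 with the lncRNA LOC102164310 and 8574 of GINS2 with a protein-coding gene. UHRF1 shares 2190 bases with ARRDC5, POLE 1586 with a pseudogene and MCM7 347 with AP4M1. Among the 6 genes with an unadjusted p under 0.05, RFC3 and RFC4 share a stretch and PCNA, POLD1, E2F1 and GINS1 share none.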

How the data were processed

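Gene counts from 6 libraries of cultured pig granulosa cells were used, with groups taken from the labels. The authors' deposited table holds raw counts for Ensembl gene identifiers. Per the submitters' processing notes, FastQC 0.11.4, Trim Galore and STAR were used on Sscrofa11.1. The deposited normalized table was not used. Counting tool and annotation release were not given in the sources used here. Symbols came from a table that names 15623 of the 35670 identifiers, and coordinates from RefSeq by symbol.

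Genes were kept by filterByExpr with a minimum count of 10. The 14242 kept genes were fitted with edgeR 4.0.16 (R 4.3.3) as heat minus control. TMM scaling, robust dispersions, the two-sided quasi-likelihood test and Benjamini-Hochberg adjustment were used. Each SE was derived from the fold change and its F statistic, and intervals are at 95% and unadjusted. Log2 CPM has a prior count of 2. Totals of 18711440 to 29606378 counts limit the precision of genes with few reads. The common biological coefficient of variation came to 43.6%. An exact test of 3 against 3 cannot go below p = 0.1, so none was used. On simulated data the test missed all changes of 2-fold and most of 4-fold. Those data had few changed genes and no pairs of closely alike libraries, so these shares do not carry over to the libraries here. A gene not called may still differ.

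The replication genes and the gene lists were chosen with earlier results of these data known. All 31 replication genes are named. From each further pathway list, called genes are named, at most 4 in each direction by absolute log2 fold change. Alternatives were RLE scaling, library totals, no filter, 10 CPM in 3 libraries, DESeq2 1.42.0, limma-voom (limma 3.58.1), the replicate number as a block, omitting 1 library at a time, leaving out control 1 and heat 3, and summing the closely alike libraries. Those for the further lists were added after seeing the data.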

Additional observations from a re-analysis of the deposited data

How the results depend on the processing

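Of the 30 replication genes, 22 kept their sign under all alternatives that tested them. With RLE scaling 822 of 14242 genes were called higher and 739 lower, and 1 of the 30 was called lower (PCNA). MCM3 was then at -0.057 and CCNE1 at -0.0077 (log2 fold changes, as below). With library totals only, 1583 genes of the table were called higher and 416 lower, 1 of the 30 was called higher (POLD1), 2 lay below the controls without overlap, MCM4 was at 0.093, MCM5 at 0.0041, MCM7 at 0.014, GINS4 at 0.071 and CHAF1A at 0.002. Without a filter 1607 of 25766 genes were higher and 850 lower, and 1 of the 30 was lower (PCNA). With 10 CPM in 3 libraries 532 of 7649 genes were higher and 396 lower. Only 13 replication genes were tested there, and 1 of these was lower (PCNA), with MCM4 at 0.019 and MCM7 at 0.0698. DESeq2 gave 2118 higher and 1792 lower, 2 and 4 of the 30, with MCM3 at -0.0566 and CCNE1 at -0.0087. Limma-voom called 1 of the 30 lower and put MCM4 at 0.028. Without both control 1 and heat 3 there were 6285 higher and 5857 lower, 10 and 13 of the 30 called, 10 and 18 without overlap, MCM4 at 0.35 and CCNE1 at -0.23. The share of all tested genes without overlap was not computed for that fit. The 10 and 18 therefore cannot be read as particular to the replication genes. With the closely alike libraries summed there were 2 higher and 0 lower over the table, MCM3 at -0.19 and GINS2 at 0.15. The fit with the replicate block gave 2104 higher and 1300 lower, 1 of the 30 lower (PCNA, adjusted p = 0.00582) and MCM4 at 0.0249. The correlations of same-numbered libraries' deviations were 0.299, -0.232 and 0.223. As each group holds a pair of closely alike libraries, these cannot show whether the numbers pair the samples. The labels do not say either, so the numbers were not taken as pairs.

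Without 1 library each, the table gave 0 to 3021 genes higher and 0 to 2713 lower, and the 30 gave 0 to 4 higher and 0 to 7 lower, with 4 to 9 above the controls and 5 to 13 below without overlap. The shares of all tested genes without overlap were not computed for these fits, so the counts without overlap have no background here. The ranges of the genes that changed sign were -0.23 to 0.50 for MCM3, -0.37 to 0.42 for MCM4, -0.30 to 0.0252 for MCM5, -0.26 to 0.0098 for MCM7, -1.07 to 0.26 for GINS2, -0.18 to 0.024 for GINS4, -0.29 to 0.0142 for CHAF1A and -0.12 to 0.16 for CCNE1. The cause of these sign changes was not tested. Depth limits CDT1, GINS2 and GINS3, each with a library under 20 reads, most.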

Other observations

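Some genes that start replication or guard the fork were higher in heat 1 and heat 2 than in any other library. They were chosen after their values were seen, and none passed edgeR's test over all 6 libraries. Most genes of the lists they come from went the other way. Log2 fold changes were below 0 in 40 of the 52 other replication genes. They were below 0 in 14 of the 20 fork repair genes and in 6826 of all 14242 tested genes. The share of all tested genes highest in heat 1 and heat 2 was not computed. The origin-firing kinase CDC7 stood at 5.21, 3.19 and 4.96 CPM in controls and at 13.8, 15.9 and 3.42 CPM in heat (adjusted p = 0.148). TICRR, which brings CDC45 to origins, was at 14.2, 3.54 and 3.77 CPM in controls and at 24.4, 22.8 and 5.20 CPM in heat (adjusted p = 0.244). The helicase RECQL4 was at 0.401, 0.524 and 1.29 CPM in controls and at 3.29, 3.77 and 0.733 CPM in heat (adjusted p = 0.132). The checkpoint kinase CHEK1 was at 8.61, 8.03 and 6.30 CPM in controls and at 36.2, 45.3 and 8.04 CPM in heat (adjusted p = 0.0663). In each of these 4 genes heat 3 lay within the range of the controls.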
